A study of Rattus norvegicus with 24 samples.

Results

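The endothelin system was taken as 7 rat genes chosen by symbol: the ligands Edn1, Edn2 and Edn3, the receptors Ednra and Ednrb, and the converting enzymes Ece1 and Ece2. All 7 were found among the 36856 genes of each deposited table. Their transcripts were measured by RNA sequencing in 24 libraries, 4 rats in each of 6 groups. In kidney inner medulla (the papilla of a single kidney), Sprague-Dawley rats of 120 to 200 g that received aldosterone from an osmotic minipump at 12 µg per day on a diet with 0.4% Na were set against control rats on that diet. In a separate low-salt experiment, inner medulla and a piece of heart ventricle came from rats kept on 0.01 to 0.02% Na (low salt), set against rats on 0.4% Na (high salt, the control diet of the protocol). No group carried a genetic change, the protocol calls the rats female, and the diets were fed for 7 days. The sources do not say how long aldosterone was infused, whether the aldosterone controls carried a pump, nor whether kidney and heart were taken from the same animals.

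Endothelins are short vasoactive peptides that are cut from longer precursors, first by furin-like proteases and then by the endothelin-converting enzymes. The A receptor (Ednra) on vascular smooth muscle drives contraction, while the B receptor (Ednrb) on endothelium releases nitric oxide, clears endothelin from the blood and, on collecting duct cells, inhibits Na and water reabsorption. The inner medulla is known as a major site of endothelin-1 synthesis in the kidney, and Edn1 is known as an aldosterone-induced gene in collecting duct cells. The comparisons ask how these transcripts depend on Na intake, on aldosterone without a diet change, and on tissue.

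Library totals ran from 24299423 to 38318764 counts, and a gene at 1 CPM (the usual unit that scales a count to its library total) has at least 24 counts. Markers fitted the labelled tissues: 10 collecting duct principal cell genes summed to 11369 to 18056 CPM in the 16 kidney libraries and to 1.48 to 49.4 CPM in the 8 heart libraries, and 8 cardiomyocyte genes summed to 1.36 to 6.23 CPM in kidney and to 60953 to 79830.3 CPM in heart. One library stands apart. Heart high-salt replicate 2 held 21.6 CPM of the water channel gene Aqp2 and 49.2 CPM of Umod, a thick ascending limb gene, against at most 1.25 and 4.66 CPM in the other 7 heart libraries. Smaller amounts were in the other batch 1 hearts, with 13 to 35 counts of Aqp2 and 21 to 130 of Umod. The batch 2 hearts had 0 or 1 count of Aqp2 and 0 of Umod. The labels call every rat female, yet Xist, the RNA of the inactive X chromosome, gave 234.4 to 451 CPM in all 8 aldosterone and control kidneys but 0 to 0.0932 CPM in all 16 low-salt and high-salt libraries. Y-linked transcripts summed to 0.0340 to 0.320 CPM in the 8 and to 148 to 276 CPM in the 16, so the transcripts of the low-salt experiment are those of male rats, against the label. Comparisons within an experiment are not touched by this, while a comparison of aldosterone with low salt also compares the sexes.

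Of the 6 members tested between the tissues, all but Edn1 differed more there than with any treatment. Edn3 and Ednrb were higher in inner medulla than in ventricle, and Ednra, Ece1 and Ece2 were lower. Such tissue differences were common, since 79.9% of all genes tested were called. Edn1 had a fitted log2 fold change of -0.35 between tissues, not called, and of -0.52 to 0.45 with the treatments. None of the members tested passed the adjusted threshold for aldosterone (6 tested), for low salt in kidney (6) or for low salt in heart (5). Few of all genes tested did either, at 0%, 2.46% and 0.0517%. The closest to a diet difference were Ednra in heart and Ednrb in inner medulla, both lower on low salt at an unadjusted p under 0.05. All levels below are plain CPM. They compare a gene between libraries and not one gene with another, since no transcript lengths are given.

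**Figure D1:**
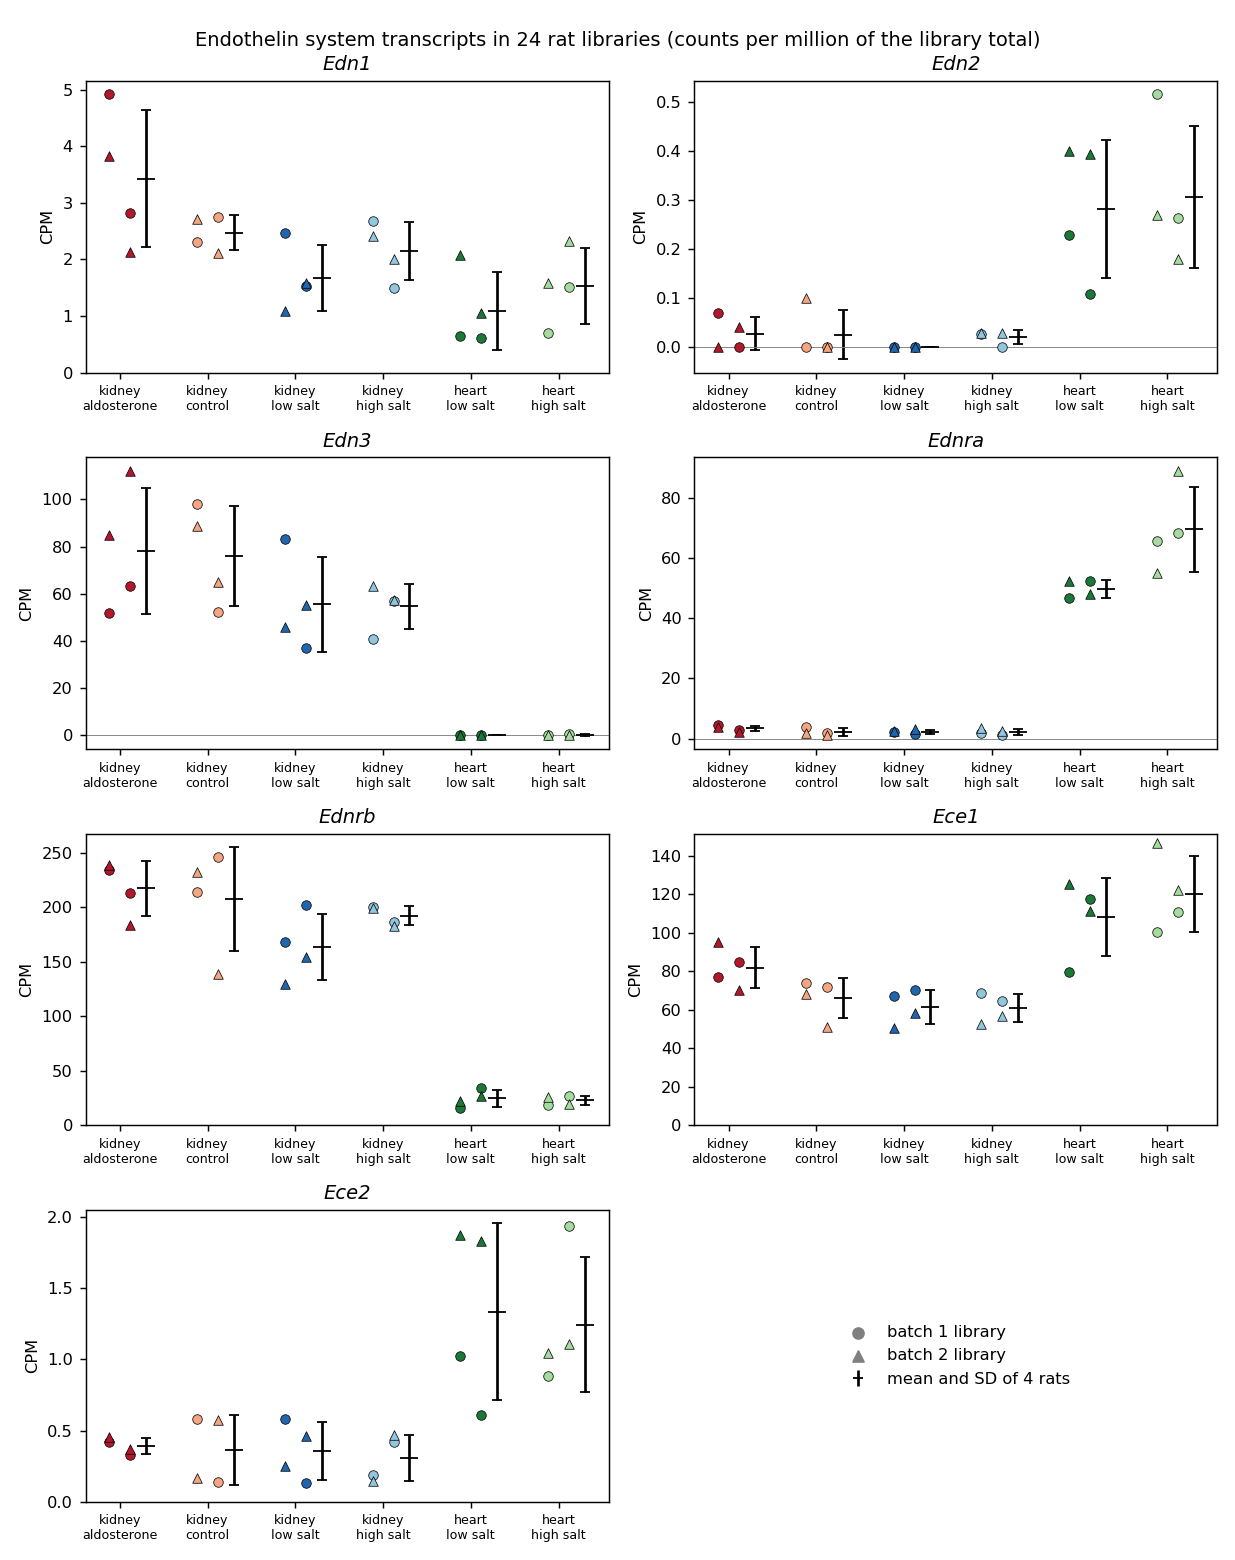
CPM of each endothelin system gene (linear axes) in the 24 libraries, 4 rats per group, with circles for batch 1, triangles for batch 2 and the group mean with its SD as a bar beside the points. Edn3 and Ednrb are high in the 4 kidney groups, Ednra, Edn2 and Ece2 are high in the 2 heart groups, and the treated and control points of a tissue overlap except for Ednra in heart.

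Edn1 encodes the precursor of endothelin-1, the most potent vasoconstrictor of the family. Its level was low in both tissues. It stood at 4.93, 2.83, 3.82 and 2.14 CPM in aldosterone kidneys, against 2.31, 2.75, 2.71 and 2.11 CPM in control kidneys. Low-salt kidneys had 2.47, 1.52, 1.10 and 1.59 CPM, against 2.68, 1.49, 2.41 and 2.01 CPM in high-salt kidneys. Low-salt hearts had 0.646, 0.609, 2.09 and 1.05 CPM, against 0.699, 1.51, 1.58 and 2.33 CPM in high-salt hearts. By group mean the order was aldosterone kidney, control kidney, high-salt kidney, low-salt kidney, high-salt heart and low-salt heart, and each neighbouring pair in it overlapped. The place of kidney above heart in this order holds on library totals only, since the TMM-scaled fit put Edn1 lower in kidney (log2 -0.35, not called). The wide spread goes with few reads, since 17 to 141 counts lay behind each value.

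Edn1 is also the member whose promoter is best described. GATA and AP-1 sites close to the start of the human gene are known from reporter studies, and hypoxia and steroid receptors are among its known regulators. RefSeq (GRCr8) gives a promoter entry for 6 of the 7 genes, all but Edn3. The stretch of the rat Edn1 promoter from 250 to 101 bases before the annotated start holds 4 of 5 motifs searched in the 250 bases upstream, on both strands. It lies at chr17:22666788-22666937 on the minus strand of GRCr8 and is shown 5′ to 3′ with the matches in capitals, in the order GATA, hypoxia core, AP-1 and TATA:
Edn1: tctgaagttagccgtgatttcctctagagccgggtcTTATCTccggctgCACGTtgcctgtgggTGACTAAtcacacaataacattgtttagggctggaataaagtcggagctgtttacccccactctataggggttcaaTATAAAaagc
The GATA letters TTATCT lie 214 to 209 bases before the start and occur in 10.3% of 33469 such windows of all promoter entries. The AP-1 letters TGACTAA lie at 186 to 180 and occur in 1.99%. The hypoxia response core ACGTG lies on the opposite strand at 201 to 197, where it reads CACGT, and occurs in 16.6%. The TATA letters TATAAA lie at 110 to 105 and occur in 12.9%, and none of the 4 matches overlaps another. The steroid receptor motif TGTTCT, in 17.5% of windows, has no match here. No motif of the 5 was matched in the windows of the other 5 members with an entry. These are matches of letters only.

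Edn2 encodes endothelin-2, a peptide known from intestine and ovary that binds both receptors. It was close to the detection limit. Counts were 2, 0, 0 and 1 in aldosterone kidneys, against 0, 0, 3 and 0 in control kidneys. Low-salt kidneys had 0 counts in all 4 libraries, against 1, 0, 1 and 1 in high-salt kidneys. Hearts held more, with 6, 3, 13 and 12 counts on low salt (0.228, 0.108, 0.399 and 0.393 CPM) and 14, 8, 8 and 5 on high salt (0.515, 0.263, 0.269 and 0.179 CPM). In all, 6 of 16 kidney libraries and 8 of 8 heart libraries had a read.

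Edn3 encodes endothelin-3, the ligand with a preference for the B receptor, known for its part in the development of enteric neurons and melanocytes. It was a kidney transcript in these data. It stood at 52.1, 63.3, 85.0 and 112 CPM in aldosterone kidneys, against 98.2, 52.3, 88.8 and 64.9 CPM in control kidneys. Low-salt kidneys had 83.4, 37.2, 46.1 and 55.3 CPM, against 40.9, 56.8, 63.4 and 57.5 CPM in high-salt kidneys. In heart, the counts were 3, 0, 0 and 0 on low salt and 0, 21, 1 and 0 on high salt, and a count of 0 allows up to 0.0921 to 0.114 CPM in a heart library. The 21 counts belong to high-salt replicate 2, the heart library with the most Aqp2 and Umod. The 3 counts belong to low-salt replicate 1, a batch 1 heart with 13 counts of Aqp2 and 21 of Umod. The Edn3 level varied about 3-fold among the 16 kidney libraries, from 37.2 to 112 CPM, with overlap between all 4 groups.

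Ednra encodes the A receptor, which binds endothelin-1 and endothelin-2 far more tightly than endothelin-3. It was low in inner medulla, with 4.56, 2.98, 3.76 and 2.35 CPM under aldosterone, against 4.06, 1.77, 1.92 and 1.21 CPM in controls. Low-salt kidneys had 2.20, 1.54, 2.45 and 3.18 CPM, against 1.93, 1.23, 3.40 and 2.48 CPM in high-salt kidneys. Ventricle was high, with 46.6, 52.2, 52.3 and 47.9 CPM on low salt, against 65.6, 68.3, 54.9 and 89.0 CPM on high salt. This was the one gene of the 7 whose heart groups did not overlap.

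Ednrb encodes the B receptor, which binds all 3 endothelins alike. It stood at 234.5, 213, 239 and 184 CPM in aldosterone kidneys, against 214, 246, 232.2 and 139 CPM in control kidneys. Low-salt kidneys had 169, 202, 129 and 155 CPM, against 200.5, 187, 199 and 183 CPM in high-salt kidneys, so that 3 of 4 low-salt values lay under all high-salt values and low-salt replicate 2 lay above them. Low-salt hearts had 15.8, 34.5, 22.7 and 26.7 CPM, against 18.8, 27.1, 26.0 and 19.9 CPM in high-salt hearts.

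Ece1 encodes the main endothelin-converting enzyme, a membrane metalloprotease that acts on the endothelin-1 precursor. It was well expressed in both tissues. It stood at 76.8, 84.9, 95.3 and 70.4 CPM in aldosterone kidneys, against 73.9, 71.6, 68.2 and 51.1 CPM in control kidneys. Low-salt kidneys had 67.3, 70.2, 50.8 and 58.3 CPM, against 68.9, 64.6, 52.8 and 56.9 CPM in high-salt kidneys. In both of these kidney groups the batch 1 values lay above the batch 2 values. Low-salt hearts had 79.4, 117, 125 and 111 CPM, against 100.3, 111, 147 and 122 CPM in high-salt hearts. Every neighbouring pair of the 6 group means overlapped in its single values.

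Ece2 encodes a related enzyme with an acidic pH optimum, known from neurons. It was low throughout, at 0.130 to 0.580 CPM (4 to 19 counts) in the 16 kidney libraries and 0.609 to 1.94 CPM (17 to 61 counts) in the 8 heart libraries. The kidney and heart values did not overlap.

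Inner medulla was set against ventricle within the high-salt groups, in a joint fit of the 16 low-salt experiment libraries with edgeR's quasi-likelihood test. Of the 6 members that passed the count filter, 2 were higher and 3 lower in kidney at a Benjamini-Hochberg adjusted p under 0.05. This was the rule rather than the exception, since 79.9% of all 19408 genes tested were called (42.9% higher and 37% lower), so the count of members shows nothing particular to them. The sizes are the informative part, and 32% of all genes were called with a difference of at least 4-fold. Edn3, Ednrb, Ednra and Ece2 were past that fold. The kidney and heart values of 5 of the 6 members, all but Edn1, did not overlap, as for 80.3% of all genes. Both tissues are mixtures, and in bulk RNA fewer cells of a type and less RNA per cell cannot be told apart.

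Ednra averaged 2.26 ± 0.918 CPM in high-salt kidneys and 69.5 ± 14.2 CPM in high-salt hearts (SD, n = 4 each), a log2 fold change of -5.91 ± 0.20 (SE) or 60.0-fold lower in kidney (edgeR adjusted p = 2.38e-12). Ednrb went the other way, at 192 ± 8.87 CPM in kidney and 22.9 ± 4.22 CPM in heart, a log2 fold change of 2.16 ± 0.20 or 4.48-fold (adjusted p = 1.5e-07). The 2 receptor genes thus differed between the tissues in opposite directions. Ednrb counts per Ednra count were 48.6 to 152 in the 16 kidney libraries (median 75.1) and 0.224 to 0.661 in the 8 heart libraries (median 0.415). The ratio depends on the lengths of both transcripts and can be read between libraries only. Markers of other cells moved with Ednra, as 7 of 7 fibroblast genes and 6 of 8 tested smooth muscle and pericyte genes were lower in kidney. Summed levels were 172 to 204 CPM in high-salt kidneys and 2179.6 to 2766 CPM in high-salt hearts for the 7 fibroblast genes. For the 9 smooth muscle and pericyte genes they were 174 to 217 CPM in kidney and 2762 to 2982 CPM in heart, where Des, a gene that heart muscle also expresses, made up 2504 CPM. Of 12 endothelial markers, 8 were lower and 2 higher in kidney under TMM scaling (median -1.63). On library totals they summed to 864 to 1211 CPM in high-salt kidneys (mean 1022) and 765 to 979 CPM in high-salt hearts (mean 885). On library totals the sum was thus not lower in kidney, but 1 marker, Plvap, made up 373 CPM of the kidney mean and 12.3 CPM of the heart mean. The part of these cells in the receptor difference was not tested.

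**Figure D2:**
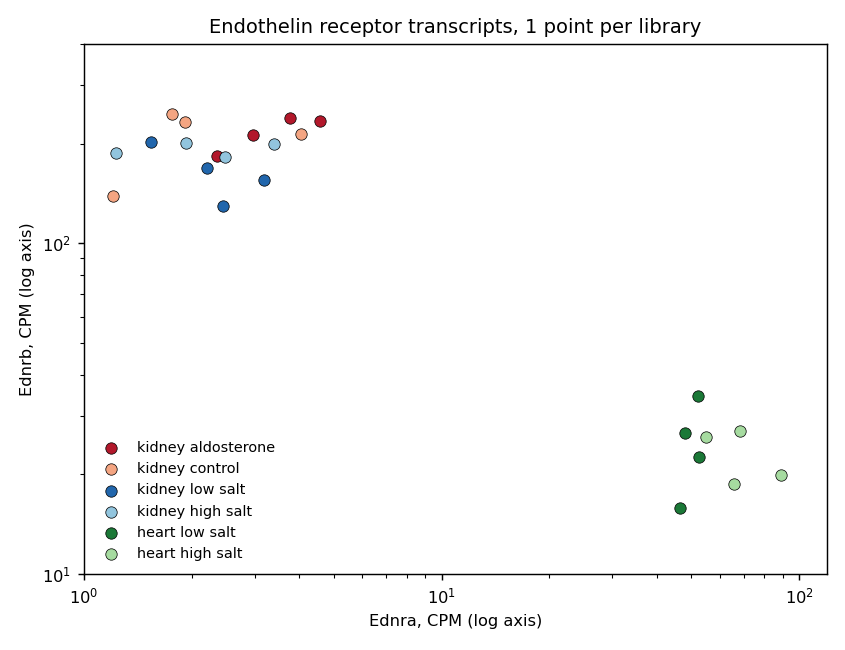
Ednrb against Ednra in CPM, both axes logarithmic, 1 point per library and colours for the 6 groups. The 16 kidney libraries lie at 129 to 246 CPM of Ednrb and 1.21 to 4.56 CPM of Ednra, and the 8 heart libraries at 15.8 to 34.5 CPM of Ednrb and 46.6 to 89.0 CPM of Ednra.

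Edn3 did not pass the count filter within heart and entered the joint fit through its kidney counts alone. Its call was thus largely fixed by the filter. The gene averaged 54.6 ± 9.65 CPM in high-salt kidneys and 0.181 ± 0.340 CPM in high-salt hearts, with a fitted log2 fold change of 8.44 ± 0.58 (edgeR adjusted p = 7.45e-09). That value rests on heart high-salt replicate 2: without it the fitted value was 10.90, with 1 count left over 3 heart libraries. From the pooled counts on library totals, Edn3 in high-salt kidneys was then 4616-fold that in high-salt hearts, with a 95% interval for counting error of 828 to 182363. On low salt, with 3 heart counts, all from replicate 1 of batch 1, the ratio was 2183, with an interval of 747 to 10587. On TMM-scaled totals these ratios were 2444 and 1135. The CPM of 4 kidneys and 4 hearts did not overlap on either diet, with Edn3 higher in kidney and Edn2 lower. Exact two-sided permutation tests gave p = 0.0286 in all 4 tests (0.0286 after adjustment over the 4), the smallest p this design can give. Every gene without overlap gets that p, and 80.3% of all genes had none between the high-salt tissues. These 2 genes were picked for their low counts, so the tests add no support to the difference. Edn2 was at least 12.4-fold lower in low-salt kidneys than in low-salt hearts, taking 3 counts over the 4 kidney libraries as the floor on plain totals. On high salt, 3 kidney counts against 35 heart counts gave Edn2 a level 14.5-fold higher in heart, with an interval of 4.58 to 73.8.

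Ece1 averaged 60.8 ± 7.30 CPM in high-salt kidneys and 120.0 ± 19.8 CPM in high-salt hearts, a log2 fold change of -1.88 ± 0.10 (edgeR adjusted p = 5.68e-10). Ece2 averaged 0.305 ± 0.160 CPM in kidney and 1.24 ± 0.473 CPM in heart, a log2 fold change of -2.93 ± 0.52 (adjusted p = 0.000129). Edn1 did not pass, at 2.15 ± 0.520 CPM in kidney and 1.53 ± 0.666 CPM in heart, with a log2 fold change of -0.35 ± 0.32 (adjusted p = 0.325). The fitted fold changes are smaller or more negative than the CPM ratios because TMM scaling assigned factors of 1.346 to 1.4 to kidney and 0.6921 to 0.7501 to heart libraries. On plain library totals Edn1 turned round to 0.55, while the log2 fold changes were 9.26 for Edn3, 3.07 for Ednrb, -5.00 for Ednra, -0.98 for Ece1 and -2.04 for Ece2, all 5 still called. The median of all genes moved from 0.16 under TMM to 1.06 on library totals, and the calls from 8325 higher and 7189 lower to 12772 higher and 4055 lower. Among these 6 genes the direction turned with the scaling for Edn1 only. Without heart high-salt replicate 2, TMM gave -5.91 for Ednra, 2.26 for Ednrb, -1.87 for Ece1, -2.48 for Ece2 and -0.06 for Edn1.

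**Figure D3:**
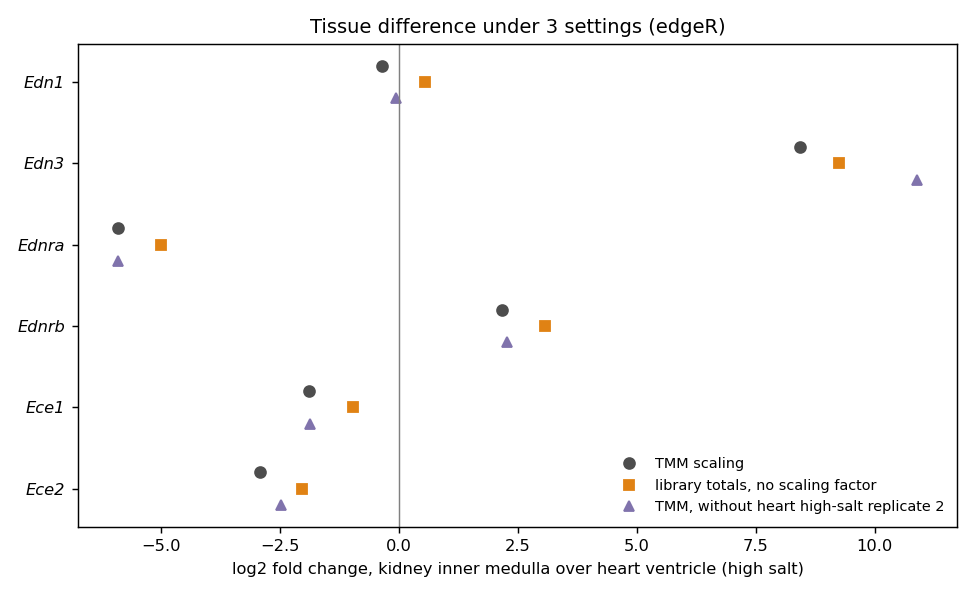
Log2 fold change of kidney inner medulla over heart ventricle on high salt for the 6 members tested, as edgeR fitted it with TMM scaling (circles), on library totals with no scaling factor (squares), and with TMM but without heart high-salt replicate 2 (triangles). Edn3 and Ednrb lie right of 0 and Ednra, Ece1 and Ece2 left of it under all 3 settings, while Edn1 lies on either side, at -0.35 and at 0.55.

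For aldosterone none of the 6 members tested had an edgeR adjusted p under 0.05, and none an unadjusted p under 0.05. In simulated data a 1.5-fold change was recovered for 22.4% of changed genes here, so a change of that size would mostly be missed. The background share of genes called was 0% of 17671, with 9.9% at an unadjusted p under 0.05, and DESeq2 gave 0 members at either threshold. No member's groups were free of overlap, where 5.37% of all genes were. Edn1 averaged 3.43 ± 1.21 CPM under aldosterone and 2.47 ± 0.309 CPM in controls, a log2 fold change of 0.45 ± 0.28 (edgeR adjusted p = 0.641). Its approximate 95% interval of -0.09 to 1.00 on the log2 scale includes 0. Of the 4 aldosterone values, 3 lay above all control values. Ece1 came closest to the threshold, at 81.9 ± 10.7 CPM under aldosterone and 66.2 ± 10.4 CPM in controls, with a log2 fold change of 0.30 ± 0.14 (unadjusted p = 0.0566, edgeR adjusted p = 0.516).

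Ednra stood at 3.41 ± 0.959 CPM under aldosterone and 2.24 ± 1.25 CPM in controls, a log2 fold change of 0.66 ± 0.35 (edgeR adjusted p = 0.587), where control replicate 1 held the second highest of the 8 values. Ednrb (0.06 ± 0.17), Edn3 (-0.02 ± 0.24) and Ece2 (0.13 ± 0.51) lay near 0 on the log2 scale, with adjusted p from 0.925 to 0.985. Over the 6 members the median log2 fold change was 0.22, against 0.00 over all genes tested. Markers of several other cells differed in the same direction, none called. Besides the 2 lists given next, median log2 fold changes were 0.59 for thick ascending limb and 0.55 for urothelium. The medians of the collecting duct principal cell (-0.13), cardiomyocyte (-0.01) and nerve and Schwann cell (-0.21) lists were negative. All 6 tested fibroblast genes had positive log2 fold changes (median 0.87), with summed levels of 164 to 445 CPM under aldosterone and 109 to 340.4 CPM in controls. All 6 erythroid genes were positive too (median 0.82), with sums of 3411 to 4698 CPM under aldosterone and 2066 to 2620.2 CPM in controls, and no marker of either list was at 0 in a whole group. The top gene of the erythroid sum, Slc4a1, is also an intercalated cell marker and averaged 1462 CPM under aldosterone and 1099 CPM in controls. The part of all these cells in the member values was not tested.

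Low salt in the inner medulla called none of the 6 members tested, where 2.46% of 18449 genes were called. At an unadjusted p under 0.05 edgeR and DESeq2 gave 1 member each, as edgeR did for 19.6% of all genes, and in edgeR it was Ednrb. No member's groups were free of overlap, where 11.6% of all genes were. Ednrb averaged 164 ± 30.4 CPM with low salt and 192 ± 8.87 CPM with high salt, a log2 fold change of -0.26 ± 0.10 (unadjusted p = 0.0329, edgeR adjusted p = 0.206). The difference came to -0.07 in batch 1 and -0.44 in batch 2. Of 12 endothelial markers, 8 also had negative log2 fold changes (median -0.09) and 1 was called lower. Their summed level was 611 to 987 CPM with low salt and 864 to 1211 CPM with high salt, with no marker at 0 in a group, and their part in the Ednrb value was not tested.

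Edn1 averaged 1.67 ± 0.577 CPM with low salt and 2.15 ± 0.520 CPM with high salt in the inner medulla, a log2 fold change of -0.39 ± 0.29 (edgeR adjusted p = 0.493). Ece1 averaged 61.6 ± 8.86 CPM with low salt and 60.8 ± 7.30 CPM with high salt, and its interval of -0.12 to 0.13 on the log2 scale was the narrowest of the 6. Edn3 (0.01 ± 0.25), Ednra (0.08 ± 0.23) and Ece2 (0.20 ± 0.55) lay close to 0 with wider errors. The median over the 6 was 0.01, against -0.00 over all genes.

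Low salt in the ventricle called none of the 5 members tested, where 0.0517% of 15473 genes were called. Ednra averaged 49.8 ± 2.97 CPM with low salt and 69.5 ± 14.2 CPM with high salt, a log2 fold change of -0.45 ± 0.14 (unadjusted p = 0.0102, edgeR adjusted p = 0.301). DESeq2 gave an adjusted p of 0.0569, also short of the threshold. All 4 low-salt values lay under all 4 high-salt values, while 4.35% of all genes had groups without overlap. At an unadjusted p under 0.05 edgeR gave 1 member, Ednra, and 10.6% of all genes, and DESeq2 also gave 1 member. The difference held its sign in both batches (-0.37 in batch 1 and -0.53 in batch 2) and with each library left out in turn (-0.56 to -0.28). All 7 fibroblast markers also had negative log2 fold changes (median -0.32, none called), with summed levels of 1210.4 to 2701 CPM with low salt and 2179.6 to 2766 CPM with high salt and none at 0. Of 8 tested smooth muscle and pericyte markers, 5 had positive and 3 negative log2 fold changes (median 0.01), and 4 had an unadjusted p under 0.05, none called. Single markers of this list thus went both ways. The 9 markers together summed to 2715 to 3020.1 CPM in low-salt hearts and 2762 to 2982 CPM in high-salt hearts, most of it Des, and none was at 0. The part of either cell type in the Ednra value was not tested.

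Edn1 averaged 1.10 ± 0.689 CPM in low-salt hearts and 1.53 ± 0.666 CPM in high-salt hearts, a log2 fold change of -0.52 ± 0.34 (edgeR adjusted p = 0.618), which was -0.25 without high-salt replicate 2. Ednrb averaged 24.9 ± 7.81 CPM with low salt and 22.9 ± 4.22 CPM with high salt (0.15 ± 0.23 on the log2 scale), and Ece1 averaged 108 ± 20.2 CPM in low-salt hearts and 120.0 ± 19.8 CPM in high-salt hearts (-0.11 ± 0.12). The log2 fold change of Ece2 was 0.05 ± 0.40. Adjusted p-values of these 3 ran from 0.766 to 0.972.

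**Figure D4:**
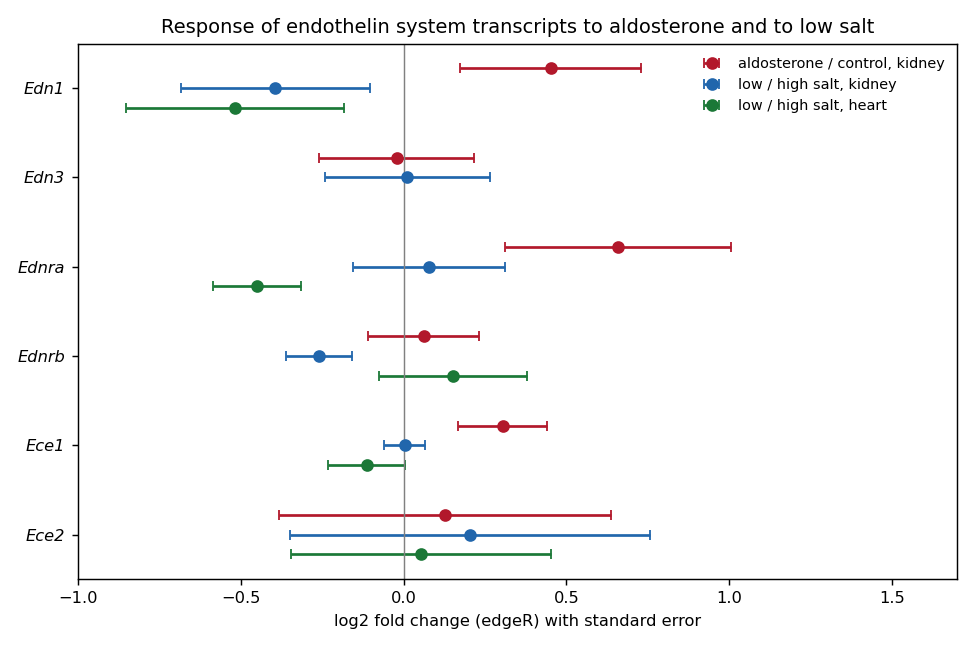
Log2 fold change (edgeR) with its standard error for the members tested in each treatment comparison, aldosterone over control in kidney (red), low over high salt in kidney (blue) and low over high salt in heart (green). The values range from -0.52 to 0.66, and no point passed the adjusted threshold, the smallest unadjusted p being that of Ednra in heart.

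Whether responses differed was tested directly, as an interaction in edgeR. Between the low-salt responses of kidney and heart, 0 of 6 members differed at an adjusted p under 0.05, where 0.83% of 19408 genes did. At an unadjusted p under 0.05 edgeR gave 0 members and 14.4% of all genes, and DESeq2 gave 1 member. The difference was 0.52 ± 0.25 on the log2 scale for Ednra (edgeR adjusted p = 0.360) and -0.40 ± 0.27 for Ednrb (adjusted p = 0.548). For Edn3 it was 2.61 ± 1.42, but -0.71 without heart high-salt replicate 2. Between aldosterone and low salt in kidney, 0 of 6 members differed, where 0.0528% of 18938 genes did, and neither tool gave a member with an unadjusted p under 0.05, which edgeR gave for 13.1% of all genes. Edn1 had the largest of these differences, 0.83 ± 0.41 on the log2 scale (unadjusted p = 0.0639, edgeR adjusted p = 0.414), positive in every fit that left out a library (0.62 to 1.06). The sex shown by Xist and the Y-linked transcripts, and the experiment itself, cannot be told apart from the treatment here.

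Genes around the endothelins were read from 4 lists. Receptor G protein and phospholipase C signalling, the route by which both receptors release Ca, had 24 members, all tested in kidney. On low salt 1 of the 24 rose there, near the 2.46% of all genes that were called: Itpr1, a Ca release channel of the endoplasmic reticulum, at 218 ± 3.02 CPM in low-salt kidneys and 169.6 ± 8.45 CPM in high-salt kidneys (log2 0.35 ± 0.06, edgeR adjusted p = 0.0289). Among 19 tested transcription factors known to act on Edn1, 1 rose, again near that share: Nfat5, the factor of the hypertonic response, at 738 ± 33.9 CPM in low-salt kidneys and 479 ± 33.7 CPM in high-salt kidneys (log2 0.61 ± 0.08, adjusted p = 0.0177). Values did not overlap between the diets for either gene, nor for 6 of the 24 signalling genes and 3 of the 19 factors in all, where 11.6% of all genes had no overlap. Within batches the log2 fold changes were 0.38 and 0.31 for Itpr1 and 0.65 and 0.58 for Nfat5, none called alone with 2 rats a group. Both lost the call with the replicate number as a block (adjusted p = 0.0679 for Itpr1 and 0.0560 for Nfat5). Itpr1 stayed called only without low-salt replicate 1 or high-salt replicate 4 (adjusted p up to 0.0941 over the 8 fits). Nfat5 lost the call without low-salt replicate 3, high-salt replicate 2 or high-salt replicate 3 (up to 0.0628).

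None of the tested genes of the processing and clearance list (7 of 10 tested) or of the nitric oxide and cGMP list (9 of 10) was called on low salt in kidney. No gene of the 4 lists was called for aldosterone or for low salt in heart, where edgeR gave 9 of 59 and 5 of 61 tested genes an unadjusted p under 0.05, beside 9.9% and 10.6% of all genes. For low salt in kidney it gave 16 of 59, beside 19.6%. In the interaction of kidney and heart, the low-salt response was higher in kidney for Nfat5 (0.70 ± 0.11, adjusted p = 0.0172) and for Itpr3, another Ca release channel (0.59 ± 0.13, adjusted p = 0.0487). Nfat5 lost that call without heart high-salt replicate 2 (adjusted p = 0.0529) and under the block (0.0580), while Itpr3 lost it under the block (0.105), with no batch term (0.138), with no filter (0.0566) and in 14 of 16 fits that left out a library, all but low-salt heart replicate 2 and high-salt kidney replicate 4. In the interaction of aldosterone and low salt, the aldosterone response of Itpr1 was the lower one (-0.55 ± 0.08, adjusted p = 0.0330). That call was lost under the block (0.0660), with no batch term (0.0802) and with upper quartile scaling (0.0549). It was kept only without control replicate 1, 2 or 4, high-salt kidney replicate 4 or low-salt kidney replicate 4.

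Between the tissues 53 of the 62 tested genes were called, where 79.9% of all genes were (42.9% higher and 37% lower in kidney), so the counts below show nothing particular to the lists. Of 8 tested processing and clearance genes, 4 were higher and 3 lower in kidney. Mme, the neprilysin that degrades endothelins, was higher at 66.5 ± 15.7 CPM in high-salt kidneys and 3.49 ± 1.74 CPM in high-salt hearts (log2 3.42 ± 0.29, edgeR adjusted p = 7.72e-08), as was Furin, a protease that cuts the precursors, at 1078 ± 118 CPM in kidney and 113 ± 13.5 CPM in heart (2.36 ± 0.10). Of 2 furin-like proteases, Pcsk5 was higher (1.04 ± 0.13) and Pcsk6 lower (-1.87 ± 0.12). Cma1, a mast cell chymase that can cleave the endothelin-1 precursor, had 1 count in the 4 high-salt kidneys and 169 in the 4 high-salt hearts, a level 210.4-fold higher in heart on library totals with a counting interval of 37.3 to 8360. Kel, the Kell glycoprotein of red cells that can process endothelin-3, was lower at 0.879 ± 0.938 CPM in kidney and 9.45 ± 8.94 CPM in heart (-4.30 ± 0.72). Of 6 erythroid markers, 5 were also lower in kidney and 1 was higher. Slc4a1, which is also an intercalated cell marker, averaged 950 CPM in high-salt kidneys and 63.5 CPM in high-salt hearts. With it, the erythroid markers summed to 1183 to 4752 CPM in high-salt kidneys and 2157 to 33253 CPM in high-salt hearts. The part of red cells in the Kel value was not tested.

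Of the 24 signalling genes, 13 were higher and 10 lower in kidney. Itpr3 (3.46 ± 0.09 on the log2 scale), the kinase gene Src (3.13 ± 0.08) and the receptor-desensitising arrestin gene Arrb1 (2.60 ± 0.10) had the largest positive differences. Rgs4 (-5.07 ± 0.17) and Rgs5 (-4.92 ± 0.16), which shorten G protein signals, and Plcb4 (-2.31 ± 0.13), a phospholipase C, had the largest negative ones. Rgs5 is also on the list of pericyte markers. Of 10 nitric oxide and cGMP genes, 2 were higher and 6 lower. Nos1, a nitric oxide synthase known from collecting duct as well as nerve, was higher at 42.6 ± 18.9 CPM in high-salt kidneys and 0.892 ± 0.528 CPM in high-salt hearts, and Prkg2, a cGMP-dependent kinase, had 0 heart counts and was at least 50.7-fold higher on TMM-scaled totals and at least 95.04-fold on plain totals (floor of 3 counts over the 4 libraries). Lower were the inducible synthase gene Nos2 (-5.72 ± 0.42), the guanylate cyclase subunit gene Gucy1a1 (-4.33 ± 0.19) and the smooth muscle kinase gene Prkg1 (-4.28 ± 0.26). Nos2 stood at 0.137 ± 0.0676 CPM in high-salt kidneys and 4.00 ± 1.57 CPM in high-salt hearts. Nos2, Gata4 and Cma1 passed the count filter through heart alone and Prkg2 through kidney alone, so their calls were largely fixed by it. Of 20 transcription factors, 7 were higher and 8 lower. Gata2 was higher (2.97 ± 0.12), as were Nfat5 (2.57 ± 0.08) and Fos (1.52 ± 0.40). Gata4, a cardiac factor, was at least 8479-fold lower on plain library totals, with 0 counts in the 4 kidney libraries, and Epas1 (-3.55 ± 0.10) and Klf4 (-2.04 ± 0.18) were lower too. Gata2 stood at 191 ± 18.9 CPM in high-salt kidneys and 13.0 ± 0.478 CPM in high-salt hearts. These list genes kept direction and call in every alternative fit.

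Likeness between genes was described over the 16 kidney libraries as the Pearson correlation of TMM-scaled log2 CPM, each gene centred on the mean of its experiment, among 11318 genes at 5 CPM or more. The libraries share dissection and tissue mixture as well as treatment, so the values describe the samples and carry no test. Edn3, Ednrb and Ece1 passed that minimum, while Edn1, Edn2, Ednra and Ece2 did not. The 3 genes most like Edn3 were Hepacam2 (r = 0.88), Gsn (0.84), which encodes the actin-severing protein gelsolin, and Atp6v1a (0.83), a subunit of the proton pump that is abundant in intercalated cells. Hepacam2 is known as an intercalated cell transcript from mouse kidney, and it was at 12.1 to 32.6 CPM in the 16 kidney libraries. The summed CPM of 6 intercalated cell markers, on a log2 scale, had r = 0.63 with Edn3 (Spearman 0.46), and the urothelial markers -0.63. One of those 6 markers, Slc4a1, is also an erythroid gene, and the erythroid list had r = 0.00 with Edn3.

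The genes most like Ednrb were Esam (r = 0.88), Yaf2 (0.87), Epha4 (0.87), Parvb (0.87) and Cd34 (0.86), and Esam and Cd34 encode surface proteins of endothelium. None of these 5 was among the 5 highest by Spearman correlation. The summed CPM of 12 endothelial markers, Esam among them, had r = 0.88 with Ednrb (Spearman 0.74), the highest of the 12 marker lists, against -0.36 for collecting duct principal cell markers. For Ece1 the highest were Ndufb2 (0.97), Uqcrq (0.96) and Ndufc2 (0.93), all subunits of the mitochondrial respiratory chain. Ece1 had r = 0.75 with the endothelial markers and 0.73 with the thick ascending limb markers. It had 0.58 to 0.66 with the proximal tubule, smooth muscle and pericyte, fibroblast, leukocyte and erythroid lists. Negative values were -0.59 for collecting duct principal cell and -0.67 for nerve and Schwann cell markers. Its likeness was thus not particular to endothelium. Below the minimum, Edn1 had r = 0.62 with endothelial and 0.46 with fibroblast markers (Spearman 0.51 with each), and Ednra was highest with fibroblast markers (0.69, Spearman 0.66). Between members the highest values were those of Ednrb with Ece1 (0.70, Spearman 0.37) and with Edn1 (0.63, Spearman 0.63), and Edn3 had -0.11 with Ednrb.

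**Figure D5:**
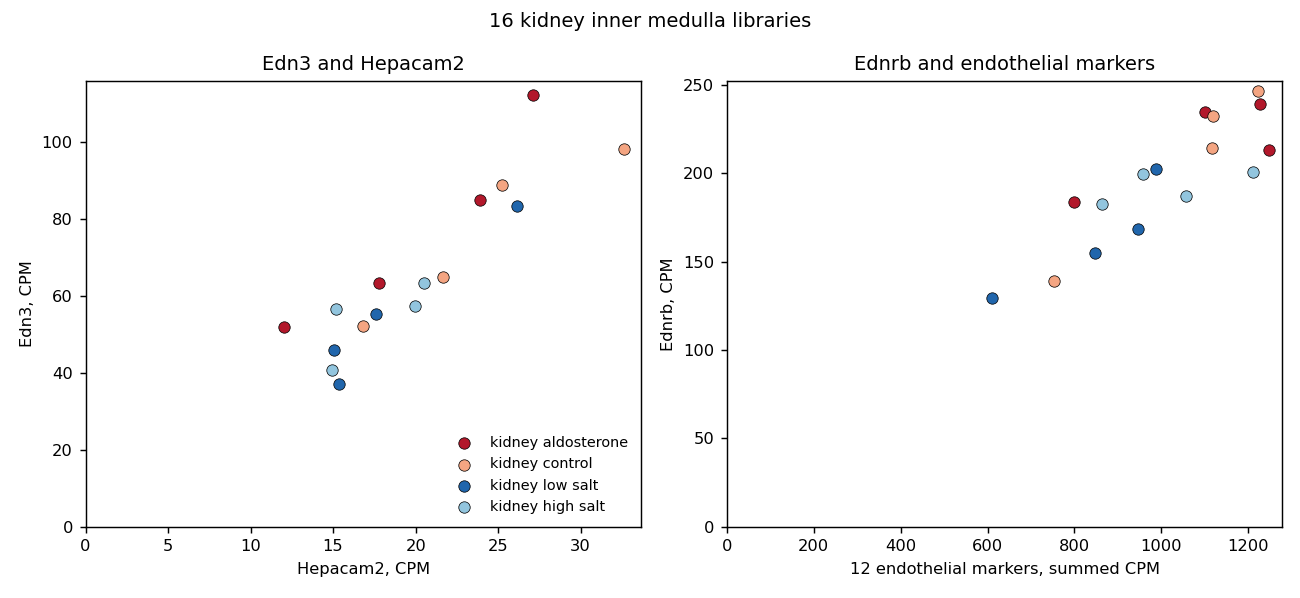
Left, Edn3 against Hepacam2, and right, Ednrb against the summed level of 12 endothelial markers, in CPM on linear axes, 1 point per kidney inner medulla library (16) with colours for the 4 kidney groups. In both plots the groups are mixed along the trend: Edn3 spans 37.2 to 112 CPM and Ednrb 129 to 246 CPM.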

How the data were processed

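RNA was sequenced from 4 rats in each of 6 groups with a stranded mRNA kit and single-end reads, per the labels' protocols. Tools listed in the submitters' processing notes are Salmon, Trimmomatic, MultiQC and bcl2fastq 2.19, while neither build, annotation nor strand setting is given. Per gene, the authors deposited expected counts, which are estimates with fractions, in 3 tables (aldosterone kidney, low-salt kidney, low-salt heart) of 36856 genes each, with no scaling between libraries. Column names gave the sample of all 24 columns.

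Expected counts were rounded to whole numbers and fitted with edgeR 4.0.16 in R 4.3.3: filterByExpr with a minimum count of 10, TMM scaling, quasi-likelihood F test, and the labelled batch as a term. P-values were adjusted by Benjamini-Hochberg over every gene tested and called under 0.05. They rest on the spread between rats within the groups of a fit, 4 rats in each. Standard errors are the log2 fold change over the root of F, and 95% intervals are their normal approximation. Tissues and interactions were fitted over the 16 libraries of 2 tables, and DESeq2 1.42.0 was an alternative. Kidney and heart libraries were treated as separate animals in these fits and in the permutation tests, though the sources do not say whether they were. No alternative fit paired them. Levels are CPM of the library total, with SD over 4 rats. Counting intervals (95%, exact) and the floor of 3 counts cover counting error only. The fits were tested on simulated data. Changes of 1.5-fold were recovered for 22.4% of changed genes for aldosterone, 31.3% for low salt in kidney and 40.3% in heart. In the interactions it was 11.9% (kidney minus heart) and 14.9% (aldosterone minus low salt), so changes of that size would mostly be missed. Changes of 2-fold were recovered for 64.2% in each treatment comparison. For aldosterone, 14 of 127 simulated calls were false.

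The genes and lists were chosen with earlier results of these data known. Named besides the 7 members are list genes past the threshold (up to 4 per list and direction by p, or 3 by fold between tissues) and the genes of highest correlation (5 for Ednrb, 3 each for Edn3 and Ece1, the members past the level minimum). Libraries of the same group were distinct: over 36 pairs the chi-square per gene lay between 20.3 and 104. In heart, same-numbered libraries deviated together (correlations of 0.223 to 0.296 over the 4 pairs). The main heart fit held only the batch term and did not pair them, and the block by replicate number was an alternative. Differently numbered libraries of 1 batch correlated as highly (0.258 to 0.325), so number and batch are not separated by this check.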

Additional observations from a re-analysis of the deposited data

Results flagged for a closer look

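Of 41 sets of 4 libraries checked with Dixon's test, 4 held a library that stood apart from the others. The chance share of 5% of that test applies to continuous values and not to sets of a few counts. It is thus no yardstick for these 4. All 4 concern Edn2 or Edn3 at a few counts. Edn2 stood at 0.0997 CPM in control kidney replicate 3 (3 counts), with the other 3 controls at 0. Edn2 was at 0 in high-salt kidney replicate 2, against 0.0271 to 0.0294 CPM (1 count each) in the other 3. Edn3 stood at 0.114 CPM in low-salt heart replicate 1 (3 counts), with the other 3 at 0. Edn3 stood at 0.69 CPM in high-salt heart replicate 2 (21 counts), against 0 to 0.0336 CPM in the other 3, and that library also held 21.6 CPM of Aqp2 and 49.2 CPM of Umod.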

How the results depend on the processing

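No member was called in any alternative fit of the 3 treatment comparisons or the 2 interactions, and between the tissues 5 or 6 members were, Edn2 being the 6th where it passed the filter. Directions that turned belonged to members not called in that comparison, and the cause was not tested. With the replicate number as a block, which changed no call of a member, Edn3 came to 0.015 for aldosterone, -0.047 for low salt in kidney and 0.043 in the aldosterone minus low-salt interaction, where Ece2 came to 0.067 (all values log2). With no batch term Edn3 was 0.022 for aldosterone, and with no filter Ece1 was -0.0031 for low salt in kidney. On library totals, a setting chosen after seeing the data, Edn1 was 0.55 between tissues. In batch 1 alone Ednrb was -0.033 for aldosterone and Ece2 -0.71 for low salt in heart. In batch 2 alone Edn3 was 0.34 for aldosterone, -0.27 for low salt in kidney and 0.60 in the aldosterone interaction. In that batch Ednra was -0.079 and Ece1 -0.024 for low salt in kidney, and Edn1 was -0.41 and Ece2 -0.60 in the kidney minus heart interaction.

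Leaving out 1 library at a time, the lowest and highest values with a turn of sign for aldosterone were -0.19 and 0.25 for Edn3, -0.094 and 0.21 for Ednrb, and -0.17 and 0.58 for Ece2. For low salt in kidney they were -0.33 and 0.17 for Edn3, -0.065 and 0.21 for Ednra, -0.026 and 0.045 for Ece1, and -0.27 and 0.56 for Ece2. For low salt in heart they were -0.11 and 0.33 for Ednrb and -0.15 and 0.46 for Ece2. In the kidney minus heart interaction they were -0.15 and 0.41 for Edn1, -0.71 and 5.58 for Edn3, and -0.33 and 0.52 for Ece2, and in the aldosterone interaction -0.21 and 0.29 for Edn3 and -0.47 and 0.38 for Ece2.

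Counts over all genes moved more. DESeq2 called 373 genes for aldosterone where edgeR called 0, 1695 where edgeR called 454 for low salt in kidney, and 303 where edgeR called 8 in heart. Under the block these edgeR counts were 0, 52 and 0. Without low-salt kidney replicate 3 the kidney count was 2, and without high-salt heart replicate 2 or low-salt heart replicate 4 the heart count was 1. The interactions had 161 and 10 genes, 821 and 657 by DESeq2, and 16 and 0 under the block. With 1 library left out they ran from 11 (without high-salt heart replicate 2) to 194, and from 0 to 67 (without high-salt kidney replicate 4). Same-numbered kidney libraries did not all deviate together (correlations of -0.0454 to 0.320 for aldosterone and -0.047 to 0.231 for low salt), so a call lost there under the block is not read as a weaker effect. Depth limits Edn2, with at most 14 counts in a library, Ece2, with 4 to 19 in kidney, and Edn3 in heart.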
